A study of Mus musculus with 8 samples.

Results

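The 10 genes Naip1, Naip2, Naip5, Naip6, Casp1, Casp4, Pycard, Gsdmd, Il18 and Il1rn were taken from the 54838 genes of a mouse RNA-seq study by their symbols. They encode the NAIP sensors of bacterial proteins, the inflammatory caspases and their adaptor, the pore protein gasdermin D, the cytokine interleukin-18 (IL-18) and the interleukin-1 receptor antagonist. The set was put together because Naip6 and Il18 were low in the 3H3PM subclones, so its values in the comparison of 3H3PM with 3H3P chose it and are given here as a description, with no test. Of the 10 genes, 8 passed the filter on low counts that 14634 genes passed. Naip1 and Pycard did not pass it.

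The study compared cultured cells of the mouse line 3H3, which the labels call hepatocellular carcinoma cells. There were 8 libraries, 1 from each of 7 3H3PM subclones (numbered 1, 2, 3, 6, 7, 8 and 9) and 1 from 3H3P. Both groups descend from a liver tumour of a C57BL/6 mouse lacking the melanocortin receptor MC4R (MC4R-KO) that was fed a high-fat diet, and both carry the Hras Q61L mutation and a Trp53 knockout made with CRISPR/Cas9. 3H3PM is 3H3P with ectopic MYC, and its subclones were isolated from tumours that it formed in nude mice, animals that lack mature T cells. 3H3P is the same line without MYC and without passage through a mouse, so MYC, growth in a mouse and subcloning cannot be told apart. The 3H3P group has 1 library, whose own variation could not be measured, and other subclones were not analysed here. Cells were cultured in DMEM with fetal bovine serum, total RNA was extracted with TRIzol, and libraries were made with a kit that marks strand.

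Innate immune cells and some epithelial cells carry inflammasomes, protein assemblies that form in the cytosol when a sensor meets a microbial product. In mice the NAIP proteins bind bacterial flagellin or parts of the type III secretion system and then recruit NLRC4, which activates caspase-1, while caspase-11 (encoded by Casp4) binds bacterial lipopolysaccharide directly. The active caspases cut gasdermin D, whose freed end forms pores in the cell membrane, and caspase-1 also cuts the precursors of IL-1β and IL-18 into their active forms. In the liver, IL-18 is known as a product of Kupffer cells and other cell types, and the protein made from Il1rn blocks the IL-1 receptor.

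The 4 Naip genes lie side by side on the minus strand of chromosome 13 (GRCm38, GENCODE vM21 annotation), Naip2 at 100144063 to 100202092, Naip5 at 100211739 to 100246323, Naip6 at 100281121 to 100317674 and Naip1 at 100407764 to 100452869. Their near identity bears on how reads can be shared between them. Over the coding sequence Naip5 and Naip6 are 97% identical (4081 of 4209 aligned bases), and the other pairs of the 4 genes are 89.8% to 92.2% identical. The first 120 coding bases are printed below, with capitals marking each base that differs from Naip5 at the same position.
Naip5: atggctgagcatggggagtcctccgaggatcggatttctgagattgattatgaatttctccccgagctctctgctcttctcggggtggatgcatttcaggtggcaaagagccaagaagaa
Naip6: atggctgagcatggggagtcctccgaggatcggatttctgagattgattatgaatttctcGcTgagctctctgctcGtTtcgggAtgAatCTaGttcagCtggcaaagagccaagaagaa
Naip1: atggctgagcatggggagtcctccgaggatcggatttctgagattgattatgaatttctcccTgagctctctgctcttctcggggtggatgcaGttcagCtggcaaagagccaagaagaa
Naip2: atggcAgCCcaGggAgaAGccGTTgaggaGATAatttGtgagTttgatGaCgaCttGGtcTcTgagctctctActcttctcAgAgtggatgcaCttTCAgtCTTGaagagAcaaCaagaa
In this stretch Naip1 differs from Naip5 at 3 positions, Naip6 at 10 and Naip2 at 36. Naip1 is thus nearest to Naip5 here, whereas Naip6 is nearest over the whole coding sequence. Of all 50-base words in the annotated transcripts, 36.8% of those of Naip5, 21.5% of Naip6, 31.5% of Naip1 and 19.1% of Naip2 also occur in another gene. Naip5 shares 22.3% of its words with Naip6, and Naip6 shares 16.9% of its words with Naip5. A read that matches several genes is divided between them by an estimate in the deposited counts. In 3H3P the deposited count was whole for Naip6 (225) and 157.97 for Naip5, so the values showed no division between this pair. Whether each read was placed on the right gene was not tested. For Casp1, Casp4, Il18, Gsdmd and Pycard the share of words found in another gene was 0.

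Promoters are shown for genes that were low together, as 300 bases from RefSeq (GRCm38.p6) on the gene's own strand, of which the last 50 follow the annotated start. Capitals mark matches to the letters searched on both strands, the E-box CACGTG that MYC and other factors bind, the AP-1 site TGANTCA, the interferon-response core (GAAA, any 2 bases, GAAA) and the TATA box TATAAA, which reads TTTATA on the other strand.
Naip2 (chr13:100202073-100202372, minus strand): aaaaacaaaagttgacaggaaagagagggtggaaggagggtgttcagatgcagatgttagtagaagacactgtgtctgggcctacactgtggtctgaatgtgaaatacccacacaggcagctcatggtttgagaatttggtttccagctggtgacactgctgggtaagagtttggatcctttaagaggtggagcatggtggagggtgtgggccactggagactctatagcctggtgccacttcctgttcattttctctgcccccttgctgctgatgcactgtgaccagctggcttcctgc
Naip5 (chr13:100247287-100247586, minus strand): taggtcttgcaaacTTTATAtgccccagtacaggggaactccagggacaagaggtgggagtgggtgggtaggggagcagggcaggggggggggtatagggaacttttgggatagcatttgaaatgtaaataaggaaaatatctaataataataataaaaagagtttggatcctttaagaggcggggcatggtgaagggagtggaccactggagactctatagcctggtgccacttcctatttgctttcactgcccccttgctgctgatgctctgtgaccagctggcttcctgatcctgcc
Casp1 (chr9:5298267-5298566, plus strand): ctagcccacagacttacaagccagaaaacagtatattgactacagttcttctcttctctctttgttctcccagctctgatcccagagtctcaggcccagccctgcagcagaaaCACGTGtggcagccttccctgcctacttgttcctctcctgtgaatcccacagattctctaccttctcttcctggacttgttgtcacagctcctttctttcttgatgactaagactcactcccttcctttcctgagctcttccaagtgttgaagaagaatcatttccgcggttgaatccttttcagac
Casp4 (chr9:5308599-5308898, plus strand): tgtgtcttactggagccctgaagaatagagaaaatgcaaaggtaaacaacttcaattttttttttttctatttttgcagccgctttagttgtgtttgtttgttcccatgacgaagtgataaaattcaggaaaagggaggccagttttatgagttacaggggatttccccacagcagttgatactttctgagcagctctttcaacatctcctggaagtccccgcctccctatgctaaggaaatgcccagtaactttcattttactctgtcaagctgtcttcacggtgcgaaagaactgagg
Il18 (chr9:50554450-50554749, plus strand): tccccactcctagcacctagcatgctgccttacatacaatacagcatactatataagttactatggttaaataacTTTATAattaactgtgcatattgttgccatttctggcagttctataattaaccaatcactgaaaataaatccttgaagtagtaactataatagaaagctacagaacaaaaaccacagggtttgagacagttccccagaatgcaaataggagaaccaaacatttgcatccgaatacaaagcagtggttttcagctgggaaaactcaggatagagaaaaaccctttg
The E-box occurred once in the Casp1 window, at position −137 relative to the start, and in 7.24% of all 27025 promoter windows. None of the other windows of the 9 genes with an entry held it. The TATA letters occurred once each in the Naip5, Naip1 and Il18 windows, at positions −236, −53 and −175, against 14.2% of all windows. One of 3 annotated Il1rn windows also held them and another held the AP-1 site, which 7.93% of all windows hold. The interferon-response core was in none of the windows of these genes and in 3.49% of all. CG dinucleotides numbered 0 in the Naip2 window, 1 each in those of Naip5, Naip6 and Il18, 3 in that of Casp1 and 5 in that of Casp4, against a median of 7 over all windows. The Naip2 and Naip5 windows were 73.1% identical over 275 aligned bases, and the Naip5 and Naip6 windows 60.2% identical over 249. The Naip5 and Naip6 windows are not at matching places relative to the GENCODE genes. That of Naip5 lies beyond the gene's start at 100246323, and that of Naip6 (100316567 to 100316866) lies inside its gene, which starts at 100317674. Their identity is therefore no measure of how alike the promoters are. These matches describe the letters only.

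Library totals ran from 12838521 to 17987068 expected counts. Levels are given as CPM, the counts of a gene relative to the TMM-scaled library total, or, where genes are compared with each other, as the deposited TPM, which also allows for transcript length. Trp53 was at 46.7 to 66.6 CPM in the subclones and 212 CPM in 3H3P, and these levels are no check of the knockout, because a frameshift can leave the transcript in place. Mouse Myc was at 3.57 to 11.6 CPM in the subclones and 85.2 CPM in 3H3P, so mouse reads gave no sign of the ectopic gene, and the species of that gene is not stated in the labels. 3H3P in the text therefore means the library labelled so. Of the 10 hepatocyte markers 5 were under 1 CPM in every library, and the list summed to 16.9 to 68.7 CPM in the subclones and 1994 CPM in 3H3P. Alb, encoding albumin and a defining hepatocyte gene, was at 0 to 2.08 CPM in the subclones and 3.67 CPM in 3H3P, a low level for the labelled cell type, and Apoa1, Ttr, Serpina1a, Cyp3a11 and Tat were under 1 CPM throughout. Other hepatocyte markers were well expressed in 3H3P, with Trf at 3.78 to 15.3 CPM in the subclones and 688 CPM in 3H3P, Ass1 at 9.97 to 57 and 661 CPM, Apob at 0 to 7.06 and 586 CPM, and Hnf4a at 0.0741 to 3.53 and 54.2 CPM in the same order. The 6 epithelial markers summed to 77.1 to 313 CPM in the subclones and 1875 CPM in 3H3P, the 3H3P sum being mostly Krt18 (38.2 to 100 CPM in the subclones and 690 CPM in 3H3P), Krt8 (13.6 to 53.1 and 543 CPM in the same order) and Cdh1 (13.1 to 82.6 and 527 CPM). Krt19 did not share this order, at 3.93 to 160 CPM in the subclones and 114 CPM in 3H3P, so its highest subclone lay above 3H3P. Epcam had 0 counts in every library. The fibroblast and stellate list summed to 3.08 to 350 CPM in the subclones and 2.12 CPM in 3H3P, nearly all of the top value from Pdgfra (up to 349 CPM).

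Since macrophages are a known source of several of these transcripts, their markers were examined beside them. Of 12 macrophage markers, 8 were under 1 CPM in every library and 2, Clec4f and Vsig4, were at 0 throughout. Ptprc, the pan-leukocyte gene encoding CD45, had 0 to 1 counts per library in the subclones and 0 counts in 3H3P. The list summed to 34.2 to 133 CPM in the subclones and 366 CPM in 3H3P, of which Cd14 made up 23.8 to 102 CPM in the subclones and 350 CPM in 3H3P. Without Cd14, a gene that liver epithelial cells can also express, the sums were 10.5 to 31.1 CPM in the subclones and 16.1 CPM in 3H3P. Csf1r was at 3.77 to 23.5 CPM in the subclones and 11.5 CPM in 3H3P. Cd68 was at 1.38 to 7.49 and 2.74 CPM in the same order, and Lyz2 at 0 to 4.41 and 0.498 CPM. For Csf1r, Cd68 and Lyz2 the highest subclone was thus above 3H3P. All 6 lymphocyte markers were at 0 in every library, and all 6 endothelial markers were under 1 CPM. In bulk RNA, fewer cells expressing a gene and less RNA per cell cannot be told apart.

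**Figure D1:**
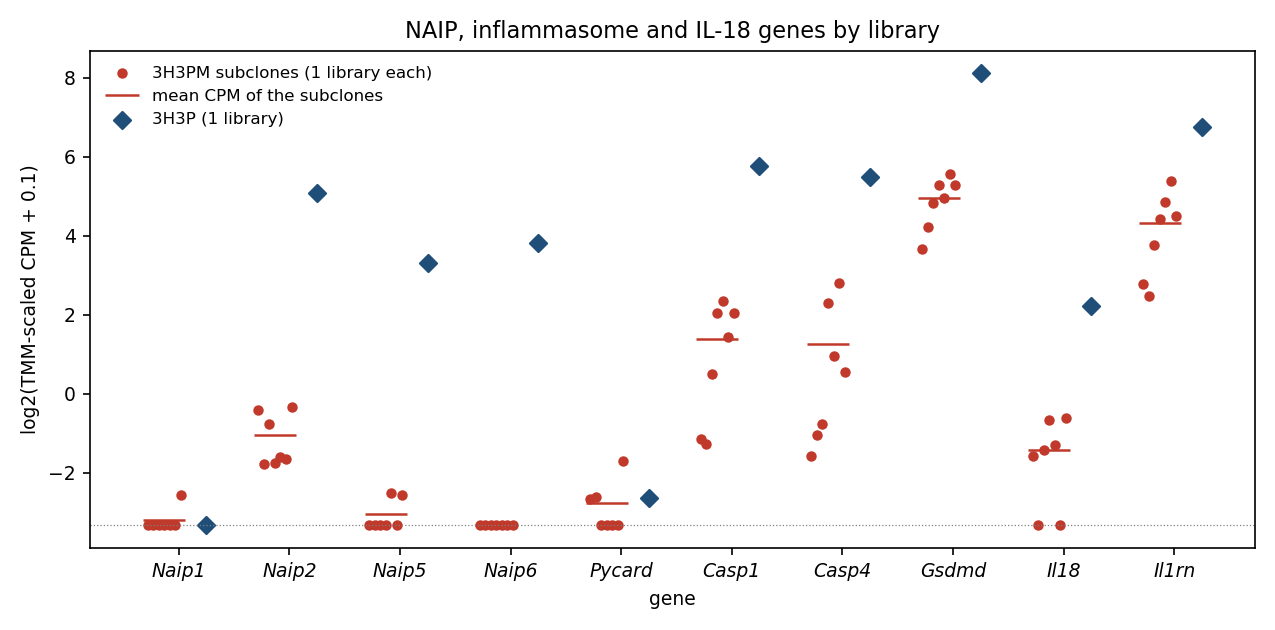
Each gene's level in each library, as log2 of TMM-scaled CPM plus 0.1 (the dotted line marks 0 CPM). Red points are the 7 3H3PM subclones with the line at their mean CPM, and blue diamonds are the single 3H3P library; all subclones lie below 3H3P for 8 of the 10 genes, and Naip1 and Pycard are near 0 in both groups.

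The first comparison is that of the 3H3PM subclones with the library labelled 3H3P, which the series design names. Every subclone was below 3H3P for all 8 genes that passed the filter, a pattern shown by 30.4% of tested genes. Among all tested genes 11.8% were called lower and 7.33% higher in the subclones by edgeR at an adjusted p under 0.05. The median log2 fold change of the 8 was −4.38, against 0.03 over all tested genes. The genes were chosen on this comparison, and Naip5, Naip6 and Il18 passed the filter through 3H3P alone, so nothing is read from these figures.

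The sensors were close to silent in the subclones. Naip2, whose protein in mice recognises the inner rod of the type III secretion system, was at 0.192 CPM in the lowest subclone, 0.229 at the median and 0.692 in the highest, against 33.5 CPM in 3H3P. Its mean of 0.383 ± 0.224 CPM in the subclones (SD, n = 7) was 87.6-fold below that in 3H3P. These levels rest on 3 to 11 counts per subclone and 539 counts in 3H3P, and the groups lay far apart with no overlap.

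Naip6 had 0 counts in every subclone, against 225 counts (14 CPM) in 3H3P. Taking 3 counts over the whole group as the upper limit, it was at least 499-fold lower in the subclones. Naip5 had 1 count each in subclones 7 and 9 and 0 in the other 5, against 157.97 expected counts (9.83 CPM) in 3H3P. Pooled counts put Naip5 in 3H3P at 525 times its level in the subclones, with an exact (Clopper-Pearson) 95% counting interval of 143 to 4376. NAIP5 and NAIP6 both recognise flagellin in mice, and both genes were readily detected in 3H3P and at or near 0 in all 7 subclones. Intervals and limits here cover counting error only.

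Naip1, whose protein recognises the needle of the secretion system in mice, was not detected in 3H3P (0 counts) and had 1 count in subclone 9. The pseudogene Naip3 had 1.03 counts in 3H3P and 0 in the subclones, so the fractional parts of the Naip5 and Naip3 values add up to whole reads divided between them. To set that division aside, the Naip genes and Naip pseudogenes were summed. The sum was 3 to 12 counts per subclone and 923 counts in 3H3P, or 0.414 ± 0.252 CPM in the subclones (SD, n = 7) and 57.4 CPM in 3H3P. This is a log2 difference of −7.12, and the ratio of pooled counts, 3H3P over 3H3PM, was 136 (counting interval 101 to 188). Naip2 held 75% to 100% of the Naip counts in each subclone and 58.4% in 3H3P.

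Pycard encodes ASC, the adaptor that links many sensors to caspase-1. It was at the edge of detection in every library, with 0 to 3 counts per subclone and 1 count in 3H3P. The pooled ratio, 3H3P over 3H3PM, was 1.25 with a counting interval of 0.0281 to 11.9, so no difference was detectable at this depth. The adaptor transcript was thus nearly absent in 3H3P too, where the caspases and gasdermin D were well expressed.

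The caspases were present at low levels in the subclones. Casp1 (chromosome 9, 5298517 to 5307265, plus strand) encodes caspase-1. It was at 0.319 CPM in the lowest subclone, 2.59 at the median and 4.97 in the highest, against 54.7 CPM in 3H3P. Its mean was 2.52 ± 1.89 CPM in the subclones (SD, n = 7), 21.7-fold below 3H3P. Casp4 (chromosome 9, 5308828 to 5336783, plus strand) encodes caspase-11. It ranged from 0.237 CPM through a median of 1.38 to 6.89 CPM in the subclones, against 45 CPM in 3H3P. The mean of 2.29 ± 2.57 CPM was 19.6-fold below 3H3P. The highest subclone remained well below 3H3P for both caspase genes.

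Gsdmd, encoding gasdermin D (chromosome 15, 75862327 to 75867408), was the most abundant of the 10 genes in both groups per transcript length, at 40.4 ± 15 TPM in the subclones and 330 TPM in 3H3P. It had 213 to 631 counts per subclone and 4440 counts in 3H3P. In CPM the lowest subclone was at 12.6, the median at 31.2 and the highest at 46.8, against 276 CPM in 3H3P. The mean of 30.8 ± 12.1 CPM (SD, n = 7) was 8.96-fold below 3H3P, with no overlap.

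Il18 (chromosome 9, 50554827 to 50581840) was low in both groups. It had 0 to 8 counts per subclone, with 0 in subclones 2 and 8, against 73 counts in 3H3P. The level ran from 0 through a median of 0.275 to 0.554 CPM in the subclones, against 4.54 CPM in 3H3P. The mean of 0.272 ± 0.222 CPM was 16.7-fold below 3H3P, and the pooled counts gave a counting interval of 10.7 to 26.7 around a ratio, 3H3P over 3H3PM, of 16.7. The subclones cannot be ranked by Il18, because their counts differ by a few reads.

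Il1rn (chromosome 2, 24336853 to 24351494), whose protein competes with IL-1 for its receptor, kept the highest share of its 3H3P level among the 8 genes. It was at 5.49 CPM in the lowest subclone, 21.4 at the median and 41.7 in the highest, against 108 CPM in 3H3P. The mean of 20 ± 12.8 CPM (SD, n = 7) was 5.38-fold below 3H3P. All 7 subclones were again below 3H3P, subclone 8 nearest to it.

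Ordered by TPM in 3H3P, Gsdmd (330) was followed by Il1rn (95.2), Casp4 (59.7), Casp1 (59.2), Naip2 (10.2), Il18 (9.96), Naip6 (2.91) and Naip5 (2.70). Casp4 and Casp1 were nearly equal there, as were Naip2 and Il18, and with 1 library their order has no measured spread. In the subclones the means were 40.4 ± 15 TPM for Gsdmd, 19.2 ± 12.8 for Il1rn, 3.18 ± 3.66 for Casp4, 2.89 ± 2.21 for Casp1, 0.731 ± 0.601 for Il18 and 0.131 ± 0.0763 for Naip2 (SD, n = 7). Casp4 and Casp1 differed by less than their spread in the subclones. The transcript length that the deposited files give for Il1rn ran from 1002 to 2459 bases between subclones, an estimate of isoform use that changes its TPM but not its CPM.

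The subclones were compared with each other next, a measure the choice of genes did not use. Over the 7 subclones the SD of log2 CPM was 1.64 for Casp4, 1.48 for Casp1, 1.07 for Il1rn and 0.67 for Gsdmd, against a median of 0.28 over 12151 genes with a mean of at least 1 CPM. Of these genes, 97.9% varied less than Casp4, 97.2% less than Casp1, 94.2% less than Il1rn and 86.2% less than Gsdmd. The genes were not matched for level. Casp1 and Casp4, at means of 2.52 and 2.29 CPM, had 5 and 4 counts in their lowest subclones, so counting error adds to their spread. The other genes of the set were under 1 CPM in all subclones, where counting error is large, and were left out of this comparison.

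Subclones 1, 2 and 3 were the lowest for Casp1, Casp4, Gsdmd and Il1rn alike in CPM, and the other 4 were higher for each of them. Casp1 was at 0.355, 0.319 and 1.32 CPM in subclones 1, 2 and 3, and at 4.04, 4.97, 2.59 and 4.01 CPM in subclones 6, 7, 8 and 9. Casp4 was at 0.237, 0.383 and 0.494 CPM in subclones 1, 2 and 3, and at 4.84, 1.83, 6.89 and 1.38 CPM in the others in the same order. In CPM the top subclone differed, being subclone 7 for Casp1 and subclone 8 for Casp4, Gsdmd and Il1rn. By TPM the top subclone for Il1rn was subclone 6 (36.59, against 35.29 in subclone 8). The highest subclone exceeded the lowest 29.1-fold for Casp4, 15.5-fold for Casp1, 7.59-fold for Il1rn and 3.71-fold for Gsdmd. The lowest values of Casp4 and Casp1 rest on 4 and 5 counts, and without the lowest subclone the ratios were 18 and 14. This split was seen in the values and is no group of the study, so no test was made of it. The share of all genes with the same order was not counted, so it is not read as a trait of these genes. Ptx3, Tap2 and Sec24d, named below for their likeness to members, had the same order.

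**Figure D2:**
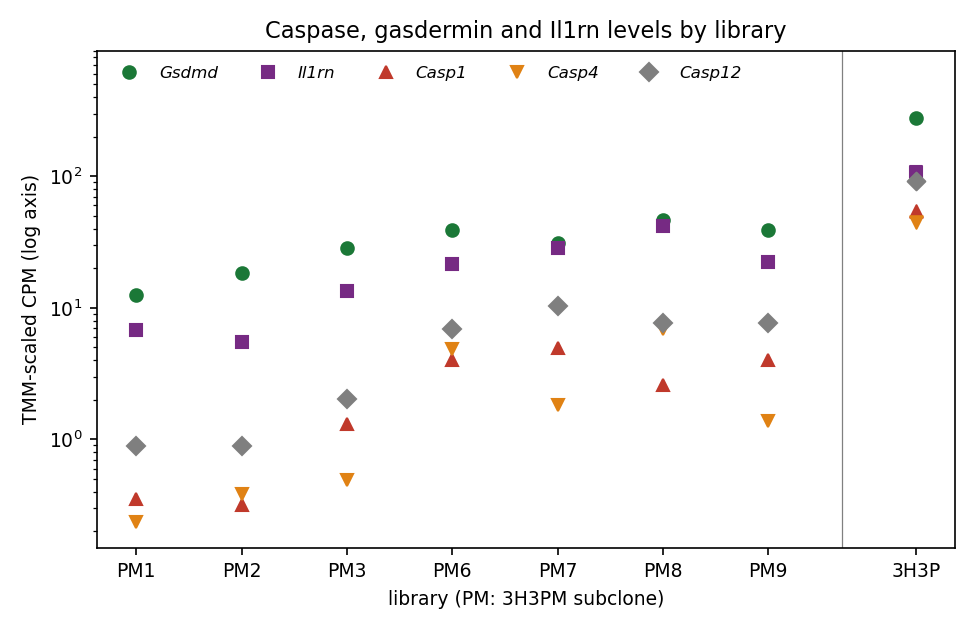
TMM-scaled CPM (log axis) of Gsdmd, Il1rn, Casp1, Casp4 and the neighbouring caspase gene Casp12 in each 3H3PM subclone (left of the line) and in 3H3P (right). Each point is 1 library. Subclones 1, 2 and 3 are the lowest for each of the 5 genes, an order whose share over all genes was not counted. The 3H3P library is above every subclone.

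Genes whose pattern over the subclones was most like that of a member were ranked by the root mean square difference of their centred log2 CPM, among 11041 genes. For Casp1 the nearest were Ptx3, encoding the soluble pattern receptor pentraxin 3 (difference 0.24), Casp12 (0.28) and Arhgdib (0.34). Ptx3 was at 10.5 to 126 CPM in the subclones and 0.0622 CPM in 3H3P, while Casp12 was at 0.888 to 10.4 CPM in the subclones and 92.6 CPM in 3H3P, so likeness over the subclones went with opposite positions of 3H3P. For Casp4 they were Tnfaip6 (0.41), which encodes a hyaluronan-binding protein, Lbh (0.42) and the vasopressin receptor gene Avpr1a (0.50). For Gsdmd they were Tap2, a subunit of the peptide transporter of antigen presentation (0.07), Sec24d, a coat protein of secretory vesicles (0.12), and Fam149a (0.13). For Il1rn they were Plcb1, a phospholipase C (0.23), the transcription factor gene Nfatc1 (0.24) and Egfr, the epidermal growth factor receptor (0.24).

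The other genes of the pathway were taken from a list by role, chosen with earlier results of these data known. A test was made here, edgeR's quasi-likelihood test with Benjamini-Hochberg adjustment over all 14634 genes. Given how the list was chosen, its shares describe the list and are no independent support. Of 71 listed genes 68 were matched and 47 could be tested. In the subclones 17 of the 47 were lower (36.2%) and 2 higher (4.26%), while 28 were not called. Over all tested genes 11.8% were lower and 7.33% higher, the shares to set beside the counts by role below. The median log2 fold change of the 47 was −0.92, against 0.03 over all tested genes. That median takes in genes that passed the filter through 3H3P alone, which fixed their direction. Gsdma and Nlrc4, which were not called, are among them. Of the 17, Aim2, Panx1, Il36a, Serpinb1a and Trim30a passed the filter through 3H3P alone, and with a minimum of 1 CPM in 2 libraries 11 of 38 were lower. The share of all genes called lower under that filter is not given here.

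Among the 11 sensors and their partners that were tested, 4 were lower and 1 higher. Aim2, encoding the sensor of cytosolic DNA, had 4 counts over all 7 subclones and 738 counts in 3H3P (log2 fold change −9.99, SE 0.71, adjusted p = 8.58e-05). Panx1, encoding a channel of the plasma membrane that caspases can open, had 0 counts in the subclones and 204 in 3H3P, at least 452-fold lower (adjusted p = 0.00771). Nlrp10 (−3.22, adjusted p = 0.0264) and Nek7, a partner of NLRP3 (−1.05, adjusted p = 0.00871), were lower as well. Without subclone 3 the log2 fold change of Nlrp10 was −3.14 and its adjusted p 0.0533 (0.00886 to 0.0533 over all alternatives). P2rx7, encoding the ATP-gated channel upstream of NLRP3, was the exception, at 14.4 ± 5.68 CPM in the subclones and 0.498 CPM in 3H3P (log2 fold change 4.84, SE 0.75, adjusted p = 0.00313).

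NLRC4 is the partner that the NAIP proteins recruit, and Nlrc4, named here after its values were seen, had 10 counts over all subclones and 11 counts in 3H3P. Its log2 fold change of −2.78 (SE 1.25) did not pass the test (adjusted p = 0.151; 0.0398 to 0.429 over the alternatives). Nlrp3, also named after its values were seen, had 7 counts over the subclones and 0 in 3H3P and was not tested. Of the tested sensor genes that were not called, Dpp8 was at 88.3 ± 11.6 CPM in the subclones and 71.6 CPM in 3H3P, and Dpp9 at 68 ± 15.7 and 108 CPM in the same order. Their products restrain the sensor NLRP1.

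Of 9 caspases, gasdermins and other genes of the lytic step, 3 were lower and 0 higher. Casp12, whose gene lies next to Casp4, was at 5.2 ± 3.85 CPM in the subclones and 92.6 CPM in 3H3P (log2 fold change −4.16, SE 0.87, adjusted p = 0.0114). Casp8, an apoptotic caspase that can also cut gasdermin D, was at 25.7 ± 3.55 CPM in the subclones and 61.7 CPM in 3H3P (−1.27, SE 0.21, adjusted p = 0.00449). Gsdme, encoding another pore-forming gasdermin, was lower by 1.11 on the log2 scale (adjusted p = 0.0467) and lost that call when any 1 of the 7 subclones was left out (adjusted p = 0.053 to 0.076). Ninj1, which drives membrane rupture after pore formation, was at 169 ± 23.1 CPM in the subclones and 168 CPM in 3H3P and was not called.

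Guanylate binding proteins expose bacterial lipopolysaccharide to caspase-11, and the list also held related genes, of which Irgm1 is not assigned that role here. Of 5 tested, 1 was lower, Irgm1, at 19.5 ± 4.54 CPM in the subclones and 55.7 CPM in 3H3P (log2 fold change −1.51, SE 0.29, adjusted p = 0.0081). Gbp2 (8.58 ± 4.71 CPM in the subclones and 15.1 CPM in 3H3P) and Gbp3 (1.29 ± 0.832 and 2.36 CPM in the same order) were not called. No guanylate binding protein gene that was tested was called.

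Few ligands of the IL-1 family were detected. Il1b, named after its values were seen, had 0 counts in every library, and 2 of 7 matched ligand genes other than Il18 and Il1rn could be tested. Il36a had 2 counts over the subclones, both in subclone 6, and 100 counts in 3H3P, a pooled ratio, 3H3P over 3H3PM, of 332 (counting interval 89.7 to 2783; adjusted p = 0.00086). Il33, which encodes a nuclear cytokine released on damage, was at 16.7 ± 16.6 CPM in the subclones and 45.1 CPM in 3H3P and was not called (adjusted p = 0.416).

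Of 7 tested receptors and decoys, 2 were lower and 1 higher. Il18rap, encoding the accessory chain of the IL-18 receptor, was at 0 to 3.06 CPM in the subclones and 42.1 CPM in 3H3P (log2 fold change −5.73, SE 1.14, adjusted p = 0.00929), though DESeq2 did not call it (adjusted p = 0.0594; 0.00386 to 0.0594 over the alternatives). The binding chain gene Il18r1, named after its values were seen, had 14 counts over the subclones and 8 in 3H3P and was not called. The decoy gene Il18bp, named likewise, was at 2.88 ± 0.471 CPM in the subclones and 2.86 CPM in 3H3P. Il1rap, the shared accessory chain of IL-1 receptors, was at 4.35 ± 1.44 CPM in the subclones and 17.6 CPM in 3H3P (−2.02, SE 0.44, adjusted p = 0.0144). Sigirr, a receptor that dampens IL-1 and IL-18 signals, was at 22.1 ± 6.31 CPM in the subclones and 4.92 CPM in 3H3P (2.17, SE 0.57, adjusted p = 0.0291; 0.0502 without subclone 3). Il1r1 (13.2 to 116 CPM in the subclones and 19.4 CPM in 3H3P) and Il1rl1 (0.148 to 29.3 and 0.871 CPM in the same order) overlapped 3H3P and were not called.

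All 10 genes listed for signalling below the IL-1 and IL-18 receptors could be tested, and 3 were lower and 0 higher. Tab1 was at 23.4 ± 2.62 CPM in the subclones and 46.9 CPM in 3H3P (log2 fold change −1.01, SE 0.20, adjusted p = 0.00876). The kinase gene Irak4 was lower by 1.16 (adjusted p = 0.0334; 0.0555 without subclone 3). Irak2 was lower by 0.95 (adjusted p = 0.0496), a call lost without any 1 of subclones 2, 3, 6, 7 and 9 (adjusted p = 0.0597 to 0.0859). The Irak2 call was also lost with library size alone, with no filter beyond 1 count, with a minimum of 1 CPM in 2 libraries and with limma. Irak1 was at 105 ± 22 CPM in the subclones and 75.3 CPM in 3H3P, and Tab2 at 95.2 ± 9.41 and 135 CPM in the same order. Irak1 was not called, nor was Tab2 with all subclones in (adjusted p = 0.0673; 0.0278 without subclone 1).

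Of the serpin and TRIM inhibitors, Serpinb9 encodes an inhibitor of granzyme B that also binds caspase-1. It was lower, at 14.7 ± 8.54 CPM in the subclones and 128 CPM in 3H3P (log2 fold change −3.12, SE 0.58, adjusted p = 0.00737). Trim30a and Serpinb1a passed the filter through 3H3P alone, so their calls add nothing as a count of the list. Trim30a, described in mice as a negative regulator of NLRP3, was at 0.116 ± 0.224 CPM in the subclones and 13.3 CPM in 3H3P (−6.84, SE 1.13, adjusted p = 0.00409). Serpinb1a, an inhibitor of neutrophil proteases and caspase-1, had 4 counts over the subclones and 29 counts in 3H3P (adjusted p = 0.014 by edgeR, 0.171 by DESeq2, the top of a range that began at 0.00447).

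**Figure D3:**
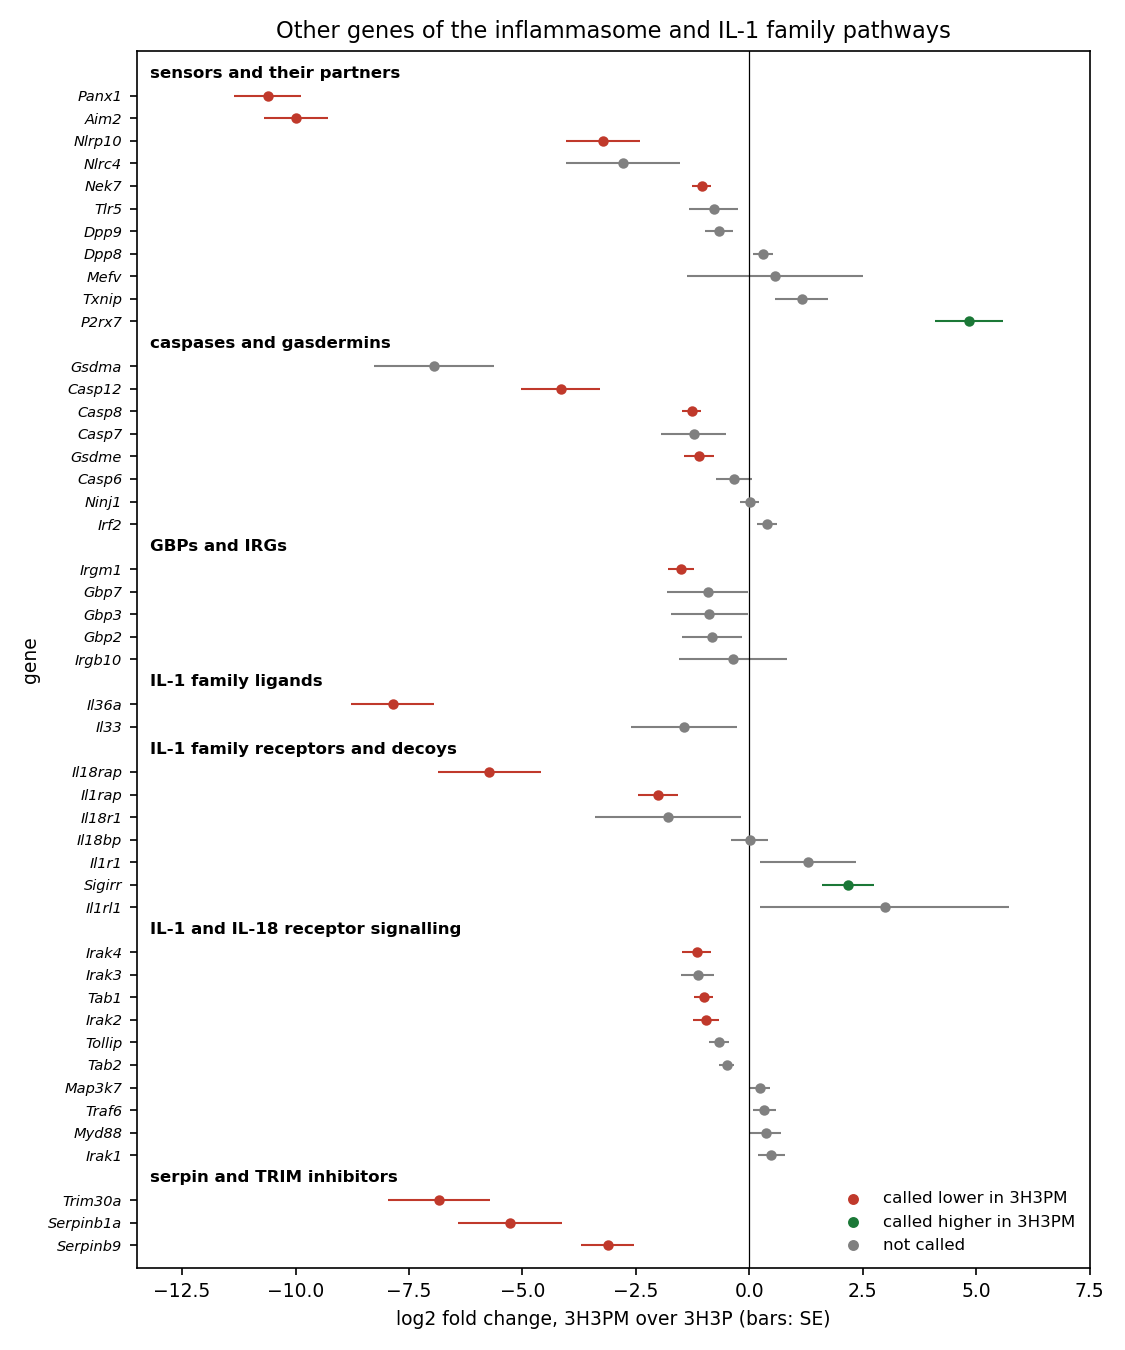
Log2 fold change, 3H3PM over 3H3P, with its standard error for 46 of the 47 tested genes of the pathway list, grouped by role. Red marks genes called lower (17), green genes called higher (2) and grey genes not called (27); for genes with 0 counts in all subclones, such as Panx1, the fitted value depends on the prior count.

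Since the members lie in 6 places of the genome, the 5 nearest tested genes on each side of the Naip cluster, of Il18 and of the Casp1 and Casp4 pair were examined with the same test. Over all tested genes 11.8% were called lower and 7.33% higher. Next to the Naip cluster 1 of 10 was lower and 0 were higher. That gene was Ocln, encoding the tight junction protein occludin, at 1.99 ± 1.54 CPM in the subclones and 28.4 CPM in 3H3P (log2 fold change −3.82, SE 0.89, adjusted p = 0.018; 0.00695 to 0.0803 over the alternatives). The nearest genes on either side, Smn1 (6.4 kb away) and Gtf2h2 (7.3 kb), were at 41.2 ± 6.86 and 25.8 ± 3.49 CPM in the subclones, against 30.7 and 21.6 CPM in 3H3P, and were not called. The low Naip values thus stood beside neighbours on both sides that did not pass the test.

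Next to Il18, 2 of 10 genes were lower, of which Plet1 passed the filter through 3H3P alone, which fixed its direction. Pts, an enzyme of tetrahydrobiopterin synthesis, was at 6.91 ± 1.61 CPM in the subclones and 23.1 CPM in 3H3P (log2 fold change −1.74, SE 0.33, adjusted p = 0.00734). Plet1 was at 0.0274 ± 0.0724 CPM in the subclones and 0.809 CPM in 3H3P (adjusted p = 0.0402), and its call was lost without any 1 of subclones 1, 3, 6, 7, 8 and 9 (adjusted p = 0.0532 to 0.0738). Bco2 lies on the opposite strand and overlaps the start of Il18, and the labels do not say whether the counting used strand, so reads in that overlap could belong to either gene.

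Around Casp1 and Casp4 all 10 neighbours were lower, at distances from 8.6 to 1936 kb. Pdgfd, at 0.0441 ± 0.0795 CPM in the subclones and 24.2 CPM in 3H3P, passed the filter through 3H3P alone, which fixed its direction. Before the pair lay Alkbh8, Cwf19l2, Aasdhppt, Kbtbd3 and Msantd4, with log2 fold changes of −1.06, −1.44, −1.40, −2.16 and −2.32. After it lay Casp12, Pdgfd, Dync2h1, Dcun1d5 and Mmp13, with −4.16, −8.80, −2.20, −1.29 and −3.62. Their adjusted p-values ran from 6.57e-05 for Msantd4 to 0.0224 for Alkbh8. Msantd4, the neighbour before the pair, was at 49.7 ± 2.95 CPM in the subclones and 249 CPM in 3H3P, a narrow spread beside that of Casp12 after it, at 5.2 ± 3.85 and 92.6 CPM in the same order.

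**Figure D4:**
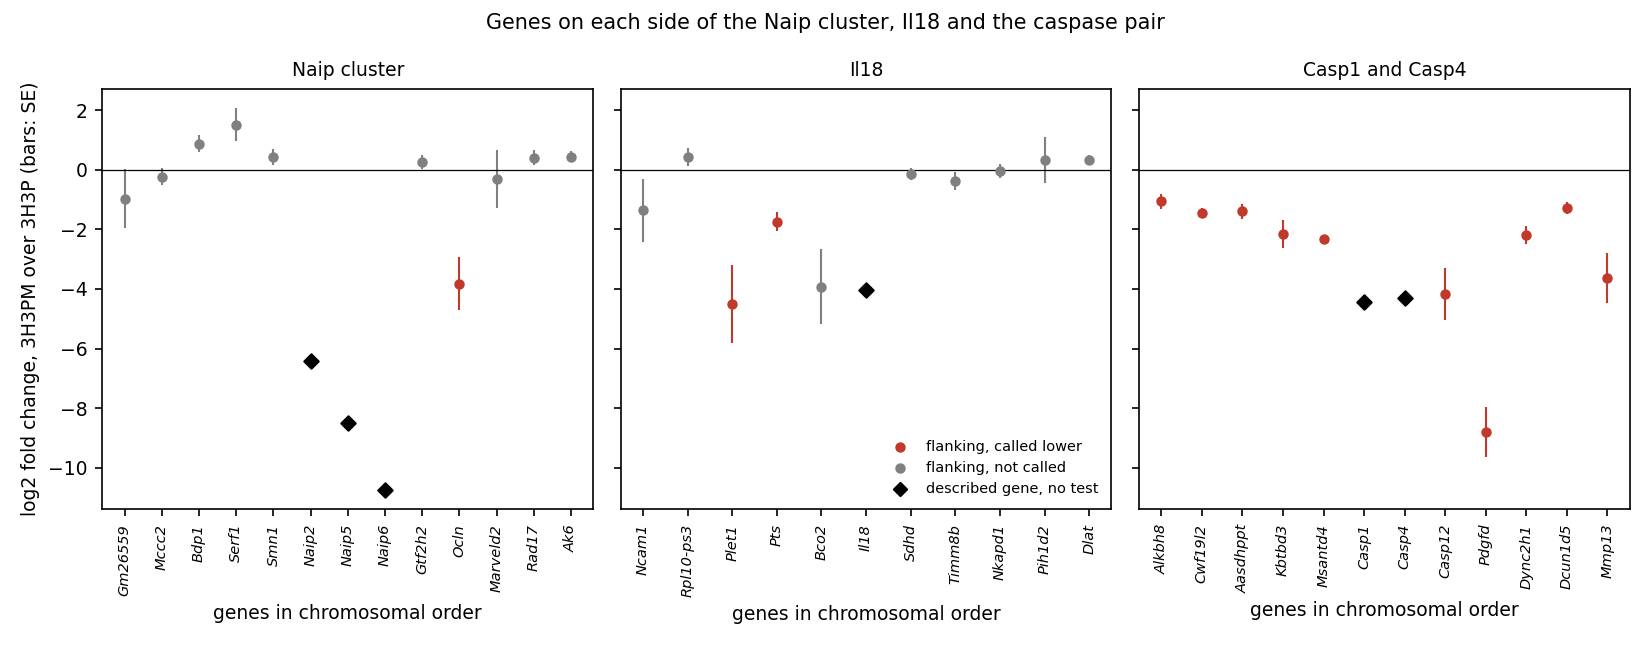
Log2 fold change, 3H3PM over 3H3P, of the 5 nearest tested genes on each side of the Naip cluster, Il18 and the caspase pair, in chromosomal order with standard errors. Red points were called lower (1, 2 and 10 of 10 genes), grey points were not called, and black diamonds are the described genes, shown with no test; the fitted values of Naip5 and Naip6, at 2 and 0 counts over the subclones, depend on the prior count.

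After the neighbours had been seen, tested genes were counted in bins of 5 Mb, leaving out the 10 genes themselves. On chromosome 9 the first 5 Mb hold 5 tested genes, the same 5 that lie before Casp1 above. In the next bin, 5 to 10 Mb, which holds Casp1 and Casp4, 10 of 16 were lower and 0 higher, with a median log2 fold change of −2.31. That median was the lowest of 409 bins with at least 10 tested genes. In this bin Pdgfd, Mmp7, Mmp10 and Mmp27 passed the filter through 3H3P alone, which fixed their direction, and they enter the median. The bin includes the 5 neighbours after Casp4, and of its other 11 genes 5 were lower and 0 higher, with a median of −2.30. From 10 to 15 Mb 0 of 13 were lower and 1 higher, with a median of 0.26. Besides the neighbours above, the 5 to 10 Mb bin holds the inhibitor of apoptosis genes Birc2 and Birc3, named after their values were seen. Birc2 was at 37.3 ± 5.27 CPM in the subclones and 185 CPM in 3H3P (log2 fold change −2.31, SE 0.19, adjusted p = 0.000166). Birc3 was at 15.9 ± 5.17 CPM in the subclones and 210 CPM in 3H3P (−3.72, SE 0.33, adjusted p = 0.000256). Yap1, in the same bin and named likewise, was at 158 ± 14.9 CPM in the subclones and 473 CPM in 3H3P (−1.58, SE 0.15, adjusted p = 0.000326).

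The bins of the other members showed no such run, beside shares of 11.8% lower and 7.33% higher over all tested genes. That of the Naip cluster had 1 of 29 genes lower with a median of 0.26, rank 299 of 409 from the lowest. That of Il18 had 6 of 42 lower and 4 higher (median −0.12), that of Il1rn 2 of 24 lower and 1 higher (−0.07), and that of Pycard 12 of 101 lower and 3 higher (−0.17). That of Gsdmd had 23 of 126 lower and 4 higher, with a median of −0.38 and rank 72. Called falls thus ran across all 10 neighbours of the caspase pair and took in 1 of the 10 neighbours of the Naip cluster.

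**Figure D5:**
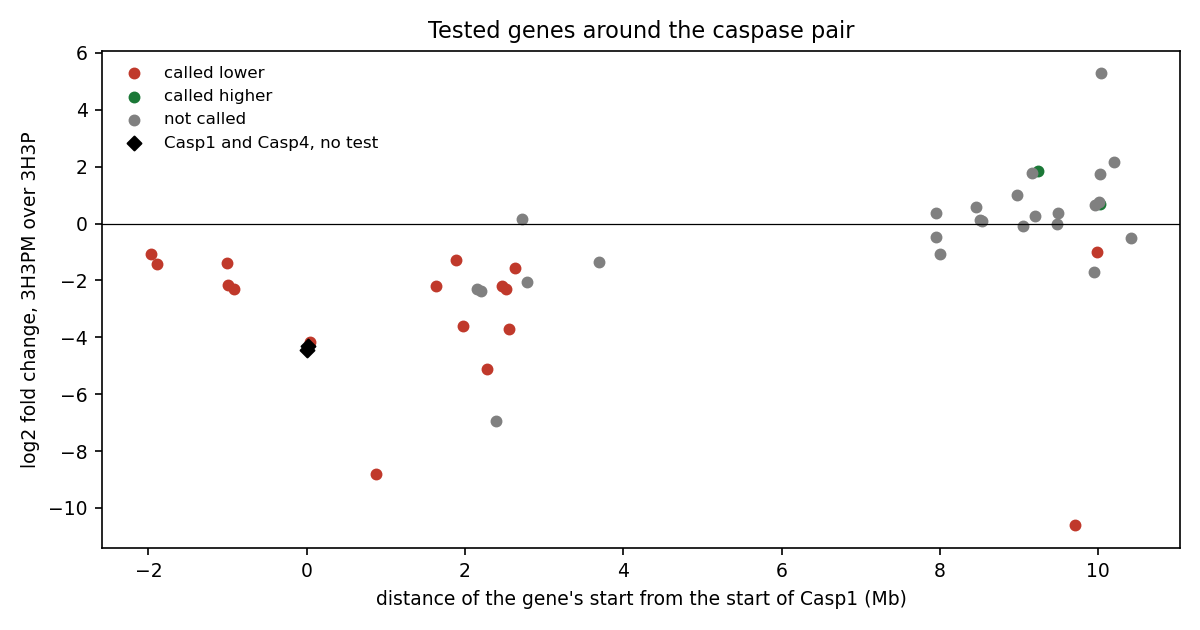
Log2 fold change, 3H3PM over 3H3P, of tested genes on the first part of chromosome 9 against the distance of their start from that of Casp1 (Mb). Red points were called lower, green higher and grey not called, and the black diamonds are Casp1 and Casp4; from Alkbh8 (−1.963 Mb) to Arhgap42 (3.696 Mb) every gene but Cfap300 lies below 0, and the low point farther right is Panx1 (9.704 Mb).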

How the data were processed

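The submitters' processing notes name the tools FastQC, STAR, RSEM and DESeq2 and the build GRCm38 (mm10), without versions or options. Per the file headers, each library's deposited file holds an expected count, a TPM value and an FPKM value for each gene. The deposited expected count splits a read that matches several genes between them by an RSEM estimate, which left fractional values for 3099 to 3459 genes in each library. The deposited TPM served to compare genes and as an alternative; the deposited FPKM was left unused.

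Rounded expected counts went into edgeR's quasi-likelihood F test (edgeR 4.0.16, R 4.3.3) after filterByExpr by group and TMM scaling, with Benjamini-Hochberg adjustment over 14634 genes and a threshold of 0.05 for a call. Only the 7 subclones gave information on the spread (6 residual degrees of freedom), so the fit takes the single 3H3P library to vary like them. Nothing beyond isolation from tumours says how separate the subclones are, and p-values measure the spread between these isolates. Alternatives used DESeq2 1.42.0 and limma 3.58.1 on log2(TPM + 0.1), other scalings and filters, and each subclone left out in turn. The procedure was also run on simulated data in which 3H3P varied like the subclones, so that assumption was not checked.

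Gene positions came from the GENCODE vM21 annotation, which placed 14079 (96.2%) of the tested genes, and promoters from RefSeq, which had 9 of the 10 genes (Gsdmd not). The 10 genes, the pathway list and the marker lists were chosen with earlier results of these data known. In the pathway list 3 names (Naip4, Naip7 and Il36rn) were not matched, and Il36a and Irgb10 are Il1f6 and Gm12250 in the files. Of the pathway genes, those called were named, with up to 2 per role of the highest mean CPM among those not called; 1 gene named by this rule is not reported here. Of the flanking genes those called were named, and for each member that varied over the subclones the 3 genes nearest in pattern. Limits for 0 counts use 3 counts over the group, and 95% intervals are exact Clopper-Pearson intervals of pooled counts. The spread over subclones used log2 CPM with a prior count of 2.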

Additional observations from a re-analysis of the deposited data

Results flagged for a closer look

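For 12 of 53 genes examined, 1 subclone lay far from the other 6 by Dixon's test (gap over range above 0.568). Chance gives about 1 in 20 for normally distributed values. That rate does not hold for genes with few counts, several of which were flagged, so the number of flags is not read against it. Of the 10 described genes only Pycard was flagged, at 0.208 CPM in subclone 9 and at most 0.0639 CPM in the others, a difference of a few reads. Subclone 7 stood apart for 5 genes. It was high for Il18rap (3.06 CPM, next 1.11), Il18r1 (0.688, next 0.208), Il1rl1 (29.3, next 12.3), Serpinb1a (0.229, next 0.0662) and Trim30a (0.611, next 0.128). Subclone 9 was high for Nlrp10 (1.8 CPM, next 0.795) and Gbp7 (2.42, next 1.11). Subclone 6 was high for Nlrc4 (0.331 CPM, next 0.138) and Il36a (0.132, next 0). Subclone 1 was high for P2rx7 (26.5 CPM, next 14.2) and low for Sigirr (9.06 CPM, next 20.9). Both receptor chain genes of IL-18 thus had their highest value in the same subclone, above 3H3P for Il18r1 (0.498 CPM) and below it for Il18rap (42.1 CPM). Values under 1 CPM rest on few counts.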

How the results depend on the processing

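The 8 tested genes of the set had every subclone below 3H3P under each scaling, with TPM and without any 1 subclone. The log2 difference of the summed Naip genes ran from −7.38 to −6.99 without 1 subclone and from −7.13 to −6.82 under other scalings and TPM. The number of pathway genes called lower was 17, or 11 with a minimum of 1 CPM in 2 libraries, where 5 of the 17 were not tested, and 13 to 19 without 1 subclone. The number called higher was 2, and 1 to 2 without 1 subclone, the lower value without subclone 3. Flanking genes called higher were 0, but 2 with DESeq2 (Bdp1, adjusted p = 0.0285, and Serf1, 0.0339), and 0 to 1 without 1 subclone (Serf1 without subclone 8, adjusted p = 0.0499). Flanking genes called lower were 13, 12 without any 1 subclone and 10 to 13 under the other settings. With limma on TPM 8 calls were lost, with log2 fold changes close to those of edgeR: Casp12 (−4.52, adjusted p = 0.0577), Il1rap (−1.88, 0.055), Irak2 (−0.78, 0.204), Irak4 (−1.23, 0.082), Gsdme (−1.03, 0.0951), Ocln (−4.03, 0.0803), Alkbh8 (−0.87, 0.174) and Mmp13 (−3.80, 0.0639). Over the 77 pathway and flanking results tested, 914 of 980 pairs of gene and setting kept direction and call, 40 lost a call, 13 gained one and 13 changed sign; the cause was not tested. The sign changes were in 4 genes that no setting called: Mefv (0.56; −0.03 with limma, −0.04 to 0.80 without 1 subclone, below 0 without subclone 7), Ninj1 (0.01; −0.01 with RLE and DESeq2, −0.03 to 0.06 without 1 subclone), Il18bp (0.01; −0.01 with RLE and DESeq2, −0.06 to 0.05 without 1 subclone) and Nkapd1 (−0.05; 0.03 with library size alone, 0.07 with limma, −0.09 to 0.02 without 1 subclone). No paired analysis was possible because 3H3P has 1 library and its label carries no replicate number. Depth limits Naip1, Pycard and, in the subclones, Naip5, Naip6 and Il18, which have from 0 to 8 counts per library there.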
